A study of Gymnopus androsaceus with 9 samples.

Results

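Of 29375 genes listed for the litter fungus Gymnopus androsaceus, 149 stepped down in transcript level from 2 to 5 months of growth on pine needles and stepped down again from 5 to 10 months. They were chosen on reads unique to one gene in all 9 libraries. Reads were divided by DESeq2 median-of-ratios size factors and scaled to CPM (reads brought to a common library size) of the mean library, and this value is called the level below. A gene was kept where its mean level at 2 months was at least 10, exceeded the 5-month mean by over 1.5 times, and the 5-month mean exceeded the 10-month mean by over 1.5 times. In addition, every library of the earlier harvest had to lie above every library of the later one in both intervals. A limit of 150 genes was set and was not reached.

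Gymnopus androsaceus is a small basidiomycete of conifer litter, known for dark, hair-like cords (rhizomorphs) that run between fallen needles. Fungi of this kind secrete enzymes that cut the polymers of plant cell walls and take up the soluble products. In needle litter the soluble compounds are generally used before the cell wall polymers, and lignin-rich residue is left to the end. The deposited tables pair no identifier with a name or product, and each gene is called by its JGI protein ID. What they encode is not stated here, and the labelled tissue could not be checked against marker genes.

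The libraries came from mycelium on Scots pine (Pinus sylvestris) needles mixed with sand. All microcosms had been sterilised by gamma radiation, inoculated with a needle that already carried the fungus, given ammonium chloride solution and sealed. The harvests at 2, 5 and 10 months had 3 libraries each, labelled as biological replicates, and no other treatment or strain separated them. Libraries held between 21939600 and 96533143 unique reads, and depth was lowest at 2 months on average. In 3 libraries, 2-month replicate 2 and 10-month replicates 1 and 2, a group of 6 abundant genes that vary together took between 17.2% and 31.9% of reads, against 1.24% to 6.84% in the other 6. In whole mycelium, a fall in level can come from fewer cells of a kind or from less RNA per cell, and these cannot be told apart.

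Among the 29375 genes, 9330 had a 2-month mean of at least 10. Of these, 1256 exceeded the 5-month mean by over 1.5 times, 196 of those then fell by over 1.5 times again, and 149 also had the libraries of neighbouring harvests apart. The 149 genes are thus 1.60% of the genes at that level. All of them passed the low-count filter used for testing. Near the level threshold, ID 876660 (10.4) and ID 1014287 (10.4) lay just inside, and ID 358860 (9.86) and ID 964962 (9.66) just outside. For the first interval the nearest ratios inside were 1.505 (ID 977675) and 1.509 (ID 832452), and outside 1.499 (ID 915378) and 1.483 (ID 1027650). For the second interval they were 1.502 (ID 923045) and 1.508 (ID 915061) inside, and 1.4999 (ID 925031) and 1.485 (ID 227194) outside. Genes on both sides of a threshold therefore had nearly the same values.

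Together the 149 genes summed to a level of 18738 ± 1267 in the first harvest, 7403 ± 381 in the second and 3057 ± 300 in the last (SD, n = 3 each). In single libraries the sums were 17409, 18874 and 19931 at 2 months, 7276, 7830 and 7101 at 5 months, and 3008, 2785 and 3378 at 10 months. The harvests did not overlap, as the rule requires gene by gene. The spread within a harvest was small beside the gaps, which the rule also favours. As plain shares of unique reads, the genes took 2.271%, 2.003% and 2.497% of the 2-month libraries, 0.967%, 1.04% and 0.918% of the 5-month libraries, and 0.292%, 0.181% and 0.367% of the 10-month libraries. The lowest share of each outer harvest was in replicate 2, a library rich in the 6 abundant genes, and the part of those genes in it was not tested. The sum fell 2.53 times over the first interval and 2.42 times over the second, or 6.13 times in all. The 5 most abundant members made up 36.1% of the sum at 2 months.

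**Figure D1:**
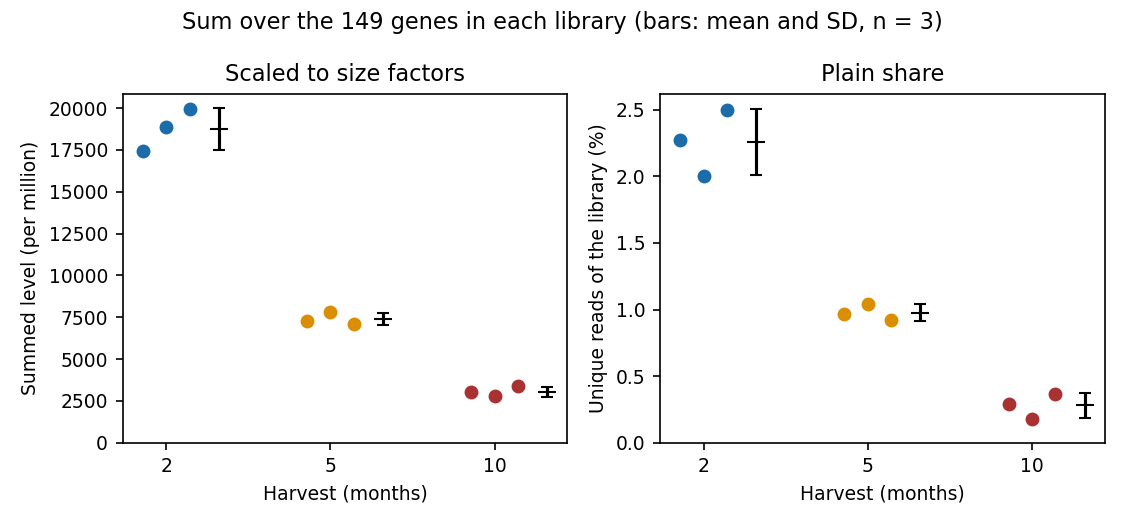
Sum over the 149 genes in each of the 9 libraries, as the level (left) and as a percent of the library's unique reads (right). Bars give each harvest's mean and SD (n = 3). The sums at 2 months lie between 17409 and 19931 and those at 10 months between 2785 and 3378, with the 5-month libraries between them.

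Individual falls were mostly moderate. The ratio of the 2- to the 10-month mean had a median of 4.55 and quartiles of 3.07 and 7.59, against a median of 1.002 over the 9330 genes. It was at least 4 in 93 members, at least 8 in 33 and at least 16 in 15, and it ranged from 2.29 to 450. From harvest to harvest the median level went from 40.4 to 15.98 and then 8.18. At the last harvest 66 members still had a mean level of at least 10, another 72 lay between 1 and 10, and 11 were under 1. No member was without unique reads in any library. These values chose the members and are a description.

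**Figure D2:**
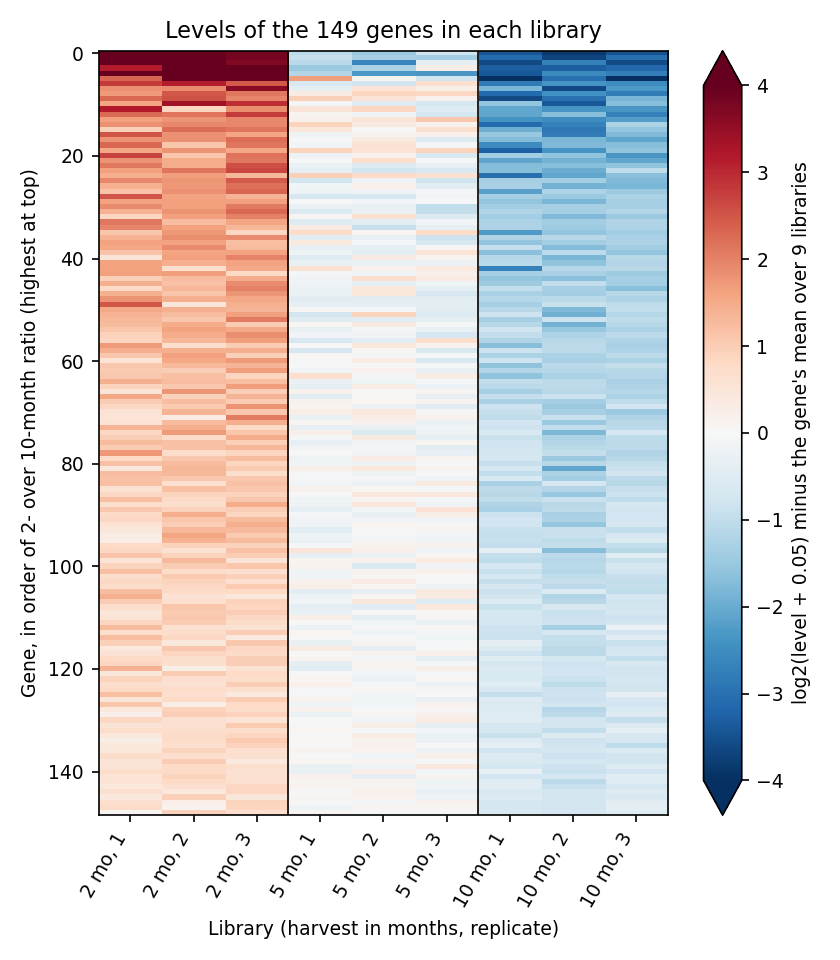
Level of each of the 149 genes (rows, ordered by the ratio of the 2- to the 10-month mean) in each library (columns), as log2(level + 0.05) minus the gene's mean over the 9 libraries; colours are capped at 4 in both directions. The 6 genes at the top fell over 100-fold and most of the others by 2.29 to 7.59 times.

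The 2 most abundant members fell 5.44 and 6.41 times between 2 and 10 months, within the quartiles of the list. ID 1023075, the highest, stood at 1771, 2094 and 2187 at 2 months, at 828, 839 and 812 at 5 months, and at 276, 396 and 440 at 10 months. Its harvest means were 2018 ± 219, 826 ± 13.6 and 371 ± 85.0 (SD, n = 3 each), so that 18.4% of the first level was left at the end. The 3 libraries of the middle harvest were nearly equal for this gene, while those of the last differed by more. ID 985190 stood at 1584, 1465 and 1897 at 2 months, at 361, 1117 and 422 at 5 months, and at 339, 158 and 274 at 10 months. The 5-month spread of ID 985190 came from replicate 2, which alone lay close to the 2-month libraries, and the 5-month mean was 633 ± 420 (SD, n = 3).

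The median fall was larger in bands of higher starting level. Members with a 2-month mean from 10 to 20 numbered 36 and had a median 2- to 10-month ratio of 3.92. The medians were 4.07 in the 50 members from 20 to 50, 4.58 in the 21 from 50 to 100, 5.502 in the 36 from 100 to 500, and 14.0 in the 6 above 500. The members were 1.39% of all genes with a 2-month mean from 10 to 20, 1.38% from 20 to 50, 1.24% from 50 to 100, 2.87% from 100 to 500 and 3.68% above 500. The 2-month mean sets the band and also enters the ratio, which favours such a trend. These bands were set after the values were seen, and no test was run across genes.

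Per transcript length, the comparison between genes used the deposited RPKM, which is scaled to the library total and to the transcript's length. Ranked by mean RPKM, 7 members were among the 100 highest genes at 2 months, but only 1 was at 5 months and 0 were at 10 months. Among the 500 highest the numbers were 18, 7 and 0. The median member went from rank 4113 at 2 months to 7335 at 5 months and 10267 at 10 months. RPKM uses total reads, which include the unique reads that chose the members, so these ranks are a description. ID 809329, with a transcript of only 330 bases, was the highest member per length. In harvest order its RPKM was 3448 ± 81.2, 2097 ± 262 and 182 ± 134 (SD, n = 3 each), which placed it at ranks 20, 43 and 781. ID 1023075, the highest by level, has 2245 bases and moved from rank 94 to 345 and 955.

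Separate from the bulk of the list, 6 members fell over 100-fold between 2 and 10 months; the next ratio below them was 41.9. They are set apart here after their values were seen. Their 2-month means lay between 24.5 and 220, their 5-month means between 0.563 and 8.19, and their 10-month means between 0.0803 and 0.992. The last of these rested on 3 to 70 unique reads per library, while the floor of 3 reads corresponds to a level of 0.0320, 0.0564 and 0.0456 in the 3 libraries. Floors cover counting error only. In 3 of the 6 genes, ID 928258, ID 926917 and ID 968053, between 46.0% and 63.6% of reads also fit other genes, so their levels are uncertain.

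ID 928258 had the largest fall. Its level was 132, 59.2 and 36.9 in the 2-month libraries, 1.21, 0.874 and 1.42 at 5 months, and 0.192, 0.132 and 0.182 at 10 months. Replicate 1 was highest at 2 months, and the 2- to 10-month ratio was 450 with it and 285 without it. ID 926917 followed with 65.0, 23.2 and 19.7, then 0.689, 0.509 and 0.492, then 0.117, 0.0564 and 0.122. The order of the 2-month libraries was the same as for ID 928258, and the ratio of 365 became 218 without replicate 1.

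ID 1026262 showed that order as well, with 224, 101 and 55.0 at 2 months, 1.96, 0.624 and 3.29 at 5 months, and 0.298, 0.602 and 0.304 at 10 months. Its ratio was 316, and 194 without 2-month replicate 1. ID 974861 had the opposite order at 2 months, with 10.8, 19.8 and 42.8, and then 0.394, 0.461 and 1.40 at 5 months and 0.0746, 0.0752 and 0.0912 at 10 months. Its ratio was 305, and 191 without 2-month replicate 3. In each of these 4 genes, leaving out the highest 2-month library lowered the ratio by over 1.5 times, and the ratio stayed above 100.

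ID 968053 was the member with the steepest first fall. It stood at 310, 178 and 173 at 2 months, 3.25, 1.46 and 1.45 at 5 months, and 0.671, 1.24 and 1.06 at 10 months. The gap between the 5- and 10-month libraries of ID 968053 was narrow, from 1.45 to 1.24. ID 914614, by contrast, kept a middle level. It stood at 25.8, 93.4 and 92.1 at 2 months, 16.1, 5.49 and 2.92 at 5 months, and 0.277, 0.583 and 0.152 at 10 months. Its 2- to 10-month ratio was 209, and 328 without 10-month replicate 2. Without the 3 libraries rich in the 6 abundant genes, which leaves only replicate 3 at 10 months, it was 388. ID 914614 and ID 1026262 had the largest spread between libraries of a harvest, with pooled SDs of 1.06 and 0.95 on the log2(level + 0.05) scale.

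**Figure D3:**
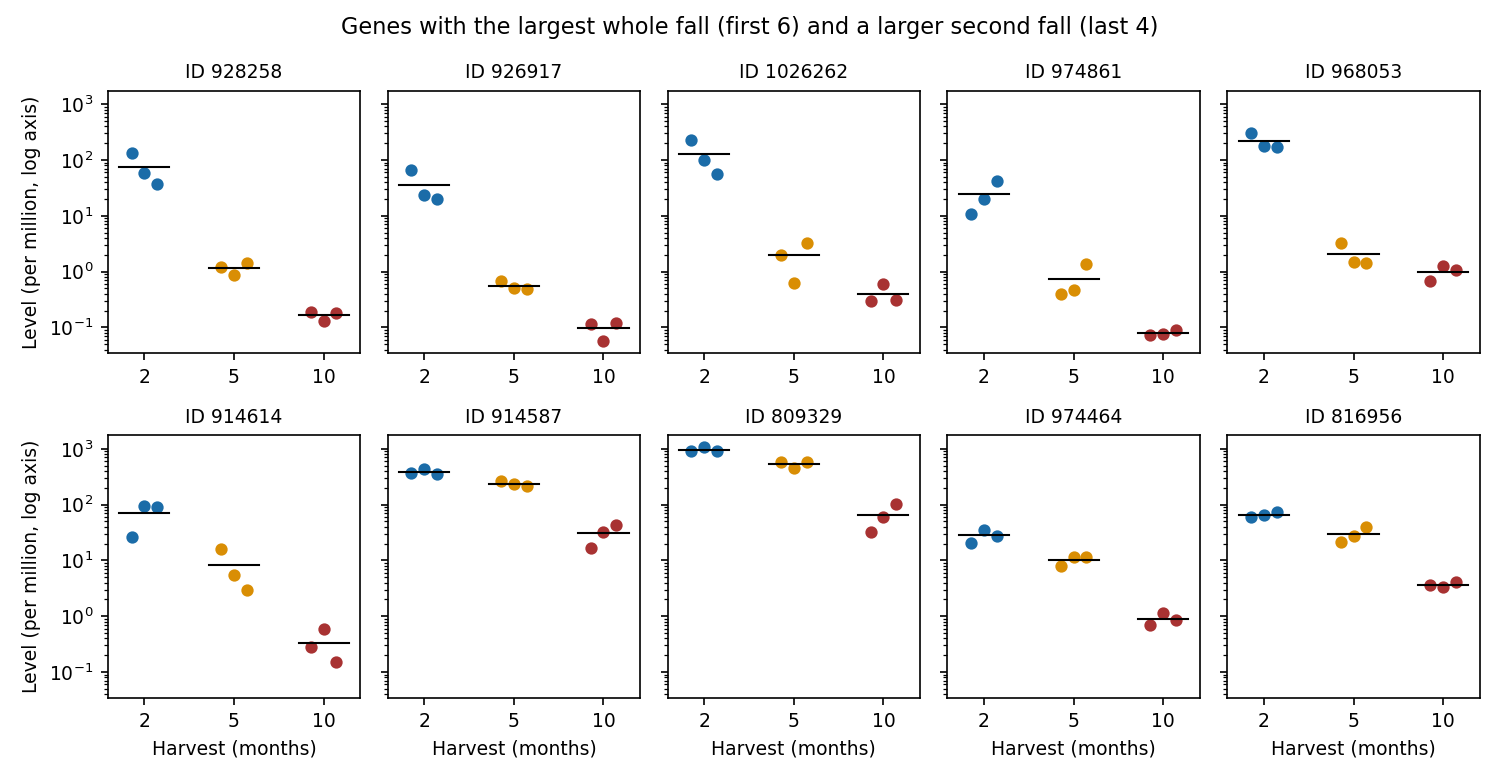
Level in each library (points, log axis) and mean of each harvest (lines). Shown are the 6 genes that fell over 100-fold and the 4 genes with a larger second fall. The first 5 panels drop to 2.05 or less on average at 5 months, whereas the last 4 have means of 10.2 to 535 at 5 months and drop to between 0.898 and 65.3 at 10 months.

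The rule asks for the same step in both intervals and does not set which of the falls was larger. It chose the members on these same values, however. The first fall was the larger in 94 members and the second in 55, and both were within a factor of 2 of each other in 123. That balance turned with the scaling: in edgeR's fits the first fall was the larger in 95 of the 149 members with TMM, in 74 with upper-quartile scaling and in 29 with library totals alone. A median of 53.0% of the whole log2 fall had taken place by 5 months, with quartiles of 46.4% and 60.1%. Per month of growth the first interval was the steeper in 133 members. The median rate was 0.38 log2 units per month from 2 to 5 months and 0.19 from 5 to 10 months, and the rule's equal steps over unequal intervals favour that order. Both falls were at least 2-fold in 50 members, at least 4-fold in 7 and at least 8-fold in 2, ID 974861 and ID 914614.

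The difference between both falls was tested for every gene with edgeR's quasi-likelihood test and Benjamini-Hochberg adjustment over 20168 genes. The first fall was larger in 10 members and the second in 4, at an adjusted p under 0.05. Over all genes tested the corresponding shares called were 5.44% and 8.09%, but those include genes that rose or peaked at 5 months. Among the 2241 tested genes with falling means and a 2-month mean of at least 10, members included, the shares were 1.52% and 0.848%. Of the members, 6.71% and 2.68% were called, and their 10 and 4 calls are part of the 34 and 19 of that set. The members were picked for 2 large falls on the same reads. These shares and the adjusted p of single members are therefore given as a description. For the remaining 135 members no difference was called, which does not show that their falls were equal. On simulated counts the test called only 1% of 2-fold and 35% of 4-fold differences between falls.

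The balance of these calls depended on the scaling. Upper-quartile scaling gave 8 members with a larger first and 5 with a larger second fall, and library totals alone gave 3 and 11. Library totals alone shifted the median difference over all genes from 0.01 to -0.67 on the log2 scale, and that over the members from 0.13 to -0.53. Over all genes the larger first falls made up 40.2% of calls, 29.7% with upper-quartile scaling and 6.23% with library totals alone. The difference of each of the 14 called members kept its sign in all 17 alternatives. The members with a larger first fall numbered 3 when 5-month replicate 3 was left out, 5 when 5-month replicate 1 was and 6 when 10-month replicate 3 was, and 2 without the 3 libraries rich in the 6 abundant genes.

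**Figure D4:**
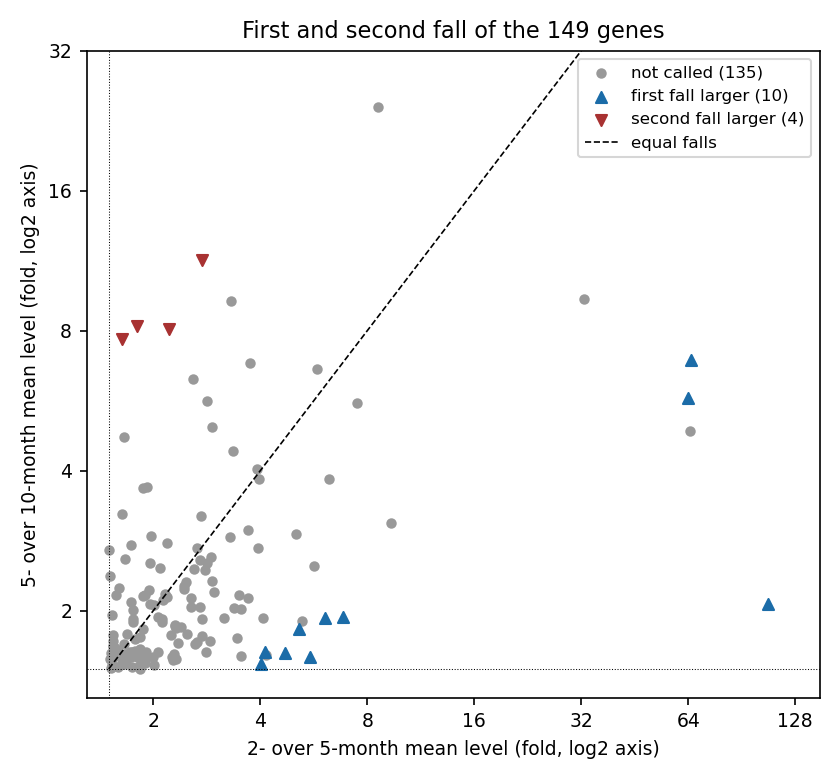
Ratio of the 2- to the 5-month mean (x axis) against that of the 5- to the 10-month mean (y axis) for the 149 genes, both on log2 axes, with the dashed line at equal falls and dotted lines at the rule's 1.5. Triangles mark the 10 genes with a larger first fall and the 4 with a larger second fall (edgeR, adjusted p under 0.05).

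The 10 members with a larger first fall dropped 4.03 to 107 times by 5 months, with a median of 5.81. By 10 months they dropped a further 1.54 to 6.93 times, with a median of 1.88. ID 968053, ID 926917 and ID 928258 have 46.0% to 63.6% of reads shared with other genes, so their levels are uncertain. ID 968053 had the largest difference, at 5.65 ± 0.70 on the log2 scale (SE; edgeR, adjusted p = 0.000561), and was called in each of 17 alternatives, at an adjusted p of 0.00899 or lower. ID 926917 had a difference of 3.54 ± 0.95 (SE; edgeR, adjusted p = 0.0328), and ID 928258 one of 3.34 ± 0.86 (SE; edgeR, adjusted p = 0.0281). Both were called in 10 of 17 alternatives, with adjusted p reaching 0.119 for ID 926917 and 0.1502 for ID 928258. ID 1026262 had a larger difference, 3.81 ± 1.251 (SE), that was not called (edgeR, adjusted p = 0.0776). DESeq2 called it at an adjusted p of 0.0250, the lowest of its alternatives, which reached 0.284.

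The 4 members with a larger second fall, ID 914587, ID 809329, ID 816956 and ID 974464, dropped 1.63 to 2.74 times by 5 months and a further 7.66 to 11.4 times by 10 months. ID 914587 stood at 373, 438 and 347 at 2 months, 267, 231 and 211 at 5 months, and 16.9, 32.5 and 43.2 at 10 months. Its difference was -2.23 ± 0.46 (SE; edgeR, adjusted p = 0.00816), and it stayed called over 17 alternatives, at up to 0.0434. ID 809329, the short abundant transcript, stood at 911, 1074 and 909 at 2 months, 581, 455 and 570 at 5 months, and 31.9, 59.7 and 104 at 10 months. For ID 809329 the difference was -2.18 ± 0.55 (SE; edgeR, adjusted p = 0.0230), and the call was lost without 5-month replicate 1 (0.0834) or 5-month replicate 3 (0.0779), within a range of 0.000376 to 0.0834. In both genes 10-month replicate 3, the library of that harvest poor in the 6 abundant genes, was the highest of its harvest. Without the 3 libraries rich in those genes, only that replicate 3 was left at 10 months. The 2- to 10-month ratios then went from 12.5 to 8.34 for ID 914587 and from 14.8 to 8.74 for ID 809329.

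ID 816956 and ID 974464 completed this set and are named because the set is small. ID 816956 stood at 59.2, 65.0 and 72.7 at 2 months, 21.3, 27.5 and 39.8 at 5 months, and 3.57, 3.33 and 4.09 at 10 months. Its difference was -1.85 ± 0.36 (SE; edgeR, adjusted p = 0.00596), and only the fit without the 3 libraries rich in the 6 abundant genes lost it, at 0.0847. ID 974464 stood at 20.7, 35.5 and 27.6 at 2 months, 7.91, 11.4 and 11.3 at 5 months, and 0.682, 1.15 and 0.866 at 10 months. The difference of ID 974464 was -2.07 ± 0.41 (SE; edgeR, adjusted p = 0.00666), and it was called in all 17 alternatives. The 10-month libraries of ID 816956 were close to each other, unlike those of ID 914587 and ID 809329.

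The least variable members gave a regular stair. ID 511716 had levels of 163, 177 and 177 at 2 months, 89.9, 102 and 105 at 5 months, and 47.3, 48.1 and 46.8 at 10 months. Its pooled SD was 0.08 on the log2(level + 0.05) scale, against a median of 0.31 over the members. ID 858716 had 27.7, 26.6 and 25.0, then 15.1, 16.4 and 16.4, then 10.1, 8.63 and 9.54, with a pooled SD of 0.09. The longest members had 2- to 10-month ratios of 2.58 and 3.59. ID 971239, at 8291 bases, went from 18.8 ± 4.53 to 12.2 ± 0.733 and 7.27 ± 0.625, and ID 915898, at 4821 bases, from 13.6 ± 1.12 to 6.02 ± 0.988 and 3.79 ± 0.832 (SD, n = 3 each).

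Because all libraries entered the choice, the order of harvests was also read in libraries that the choice had not used. The rule was applied to 8 libraries, with size factors from all 9, and the left-out library was then placed against the libraries of the neighbouring harvests. Each left-out 2-month library exceeded every 5-month library in 132 of 150, 139 of 150 and 140 of 150 genes so chosen, or 88.0%, 92.7% and 93.3%. Over the genes with a 2-month mean of at least 10 this held for 42.9%, 39.0% and 47.6%. Left-out 5-month libraries lay between the other harvests in 140 of 148, 135 of 150 and 135 of 150 genes, against 9.35%, 8.47% and 8.45% of the wider set. The 10-month libraries, left out in turn, lay below all 5-month libraries in 145 of 150, 133 of 140 and 140 of 150 genes, against 28.6%, 30.0% and 27.2%. The shares among chosen genes were thus 88.0% to 96.7%. The libraries it was placed against had entered the choice, which favours the order among chosen genes. The shares are therefore a description. Set against the mean of its 2 fellows, the left-out library differed by a median of -0.27 log2 units for 2-month replicate 1 and 0.14 for 10-month replicate 1, and the other 7 lay between these.

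**Figure D5:**
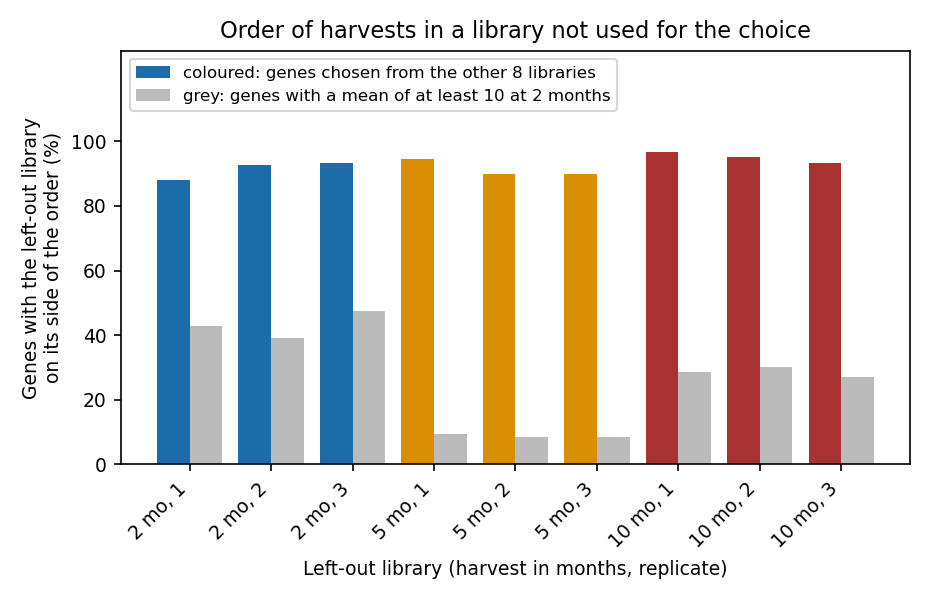
Percent of genes in which a library left out of the choice lay on its side of the order of harvests, for genes chosen from the other 8 libraries (coloured bars) and for genes with a 2-month mean of at least 10 (grey bars). The coloured bars lie between 88.0% and 96.7% and the grey bars between 8.45% and 47.6%.

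Tests of the single intervals are given as a description only, because the rule used those contrasts. In edgeR's quasi-likelihood test 141 of the 149 members were called lower at 5 than at 2 months, where 9.10% of all tested genes were, and 124 were called lower at 10 than at 5 months, where 8.19% were. The first count was 85 with library totals alone. The second was 74 when 10-month replicate 2 was left out, 80 when 5-month replicate 2 was and 82 when 10-month replicate 3 was. Without the 3 libraries rich in the 6 abundant genes it was 22, in a fit whose only 10-month library took its spread from the other harvests. Members that were not called in an interval had met the rule through their means and the order of their libraries. ID 914587 (edgeR, adjusted p = 0.0859) and ID 809329 (0.0870) were among these in the first interval, and ID 968053 (0.0669) and ID 1026262 (0.0663) in the second.

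Some features were not used for the choice. Implied transcript lengths of the members had a median of 1281 bases and quartiles of 882 and 1795, against 1351, 928 and 1905 in the genes with a 2-month mean of at least 10. The 904 genes at that level that stepped down in the first interval without a second step had a median of 1355 bases, and the 708 that stepped down in the second interval without a first had 1368. Transcripts under 500 bases numbered 4 among the members (2.68%) and 474 in the wider set (5.08%). The distributions thus lay close together, and no test was run across genes.

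The spread between libraries of one harvest was wider in the members than in the wider set. In harvest order the median SD on the log2(level + 0.05) scale was 0.31, 0.23 and 0.23, against 0.25, 0.19 and 0.18. Genes with a second step alone had similar medians, 0.33, 0.22 and 0.23, and those with a first step alone 0.25, 0.18 and 0.19. At 10 months replicate 2 held the highest of the 3 levels in 30 members (20.1%), whereas it did so in 42.8% of the wider set and 18.8% of the genes with a second step alone. That library also had the highest share of the 6 abundant genes, and the part of that share in its low values was not tested.

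Reads shared with other genes were rare in most members and frequent in a few. In 78 members (52.3%) every read was unique, close to the 52.2% of the wider set. At least 10% of reads were shared in 13 members (8.72%), against 4.79% of the wider set, 5.86% of the genes with a first step alone and 4.66% of those with a second step alone. Levels of these 13 are uncertain, since the reads may come from near-identical genes. The highest shares belonged to ID 928258 at 63.6%, ID 926917 at 62.9% and ID 968053 at 46.0%, which are 3 of the 6 members that fell over 100-fold. The other 3 had next to no shared reads, with none for ID 1026262 and ID 974861 and 0.160% for ID 914614.

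The shared reads themselves did not enter the choice, although they come from the same libraries. Their mean level stepped down from 2 to 5 to 10 months in all 13 members with at least 10% shared reads. It did so in 95 of the 447 genes (21.3%) of the wider set with as many shared reads, and in 60 of the 120 non-members among them whose unique reads fell in both intervals. Which other genes these reads fit is not known here, so members may count the same reads as each other. The members were also chosen for larger falls than these 120, so the counts are a description. For ID 928258 the shared reads stood at a level of 132 at 2 months, 1.57 at 5 months and 0.247 at 10 months, and for ID 926917 at 60.5, 0.606 and 0.135. ID 968053 had shared reads at 185, 1.32 and 0.392. Pooled by harvest, the part of its reads that was shared was 46.2%, 38.5% and 28.4% in harvest order. At 5 months the single libraries held 204, 55 and 36 shared beside 264, 152 and 56 unique reads. The part shared thus differed between libraries of that harvest. At 10 months they held 26, 26 and 27 shared beside 63, 66 and 70 unique reads.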

How the data were processed

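Mycelial total RNA was sequenced on an Illumina instrument with paired ends, per the labels. The tables that the authors deposited, 1 for each library, give 2 read counts (unique and total) and an RPKM value per JGI protein ID, per the file headers. Aligner, counter, build and annotation: not given in the sources used here. Dividing total reads by the authors' RPKM and the library total gave one transcript length per gene for 25486 genes, the same in every library within 0.01 bases.

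The members, the rules and the lists were chosen with earlier results of these data known. Size factors were computed by DESeq2's median of ratios, and levels are unique reads over size factor, as CPM of the mean unscaled library total. Tests used edgeR 4.0.16 in R 4.3.3 on unique reads, with TMM, filterByExpr (20168 genes kept) and robust quasi-likelihood fits over all 9 libraries without covariates. The contrast of unequal falls is log2(2 over 5 months) minus log2(5 over 10 months), and its SE is the size over the square root of F. No pair of replicates agreed within sampling noise, as the lowest chi-square per gene was 78.7. Before use, the edgeR fits were tested on simulated counts in which 200 genes were changed. Of 4-fold changes, 94% were called for 5 against 2 months and 89% for 10 against 5 months. Of 2-fold changes, 37% were called in both. Differences between both falls, simulated as a dip at 5 months with equal means at 2 and 10 months, were called in 35% of genes at 4-fold and 1% at 2-fold. False calls made up 5.26% to 7.35% of calls. DESeq2 1.42.0 and other scalings, filters, read types and left-out libraries were alternatives. Named members were the 2 highest for level, whole fall, length, larger first or second fall, spread (lowest and highest) and shared reads; others are marked as chosen afterwards. Gene lists defined by product names were not run, for want of names. Figures were drawn in Python 3.11.15 with matplotlib 3.10.9.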

Additional observations from a re-analysis of the deposited data

How the results depend on the processing

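The number of genes that met the rule stayed between 113 and 196 under 17 of 20 alternatives (149 as reported, and 140 to 182 with one library left out). It was 283 with library totals alone, 289 with a step lowered by 0.25 and 50 with a step of 2. TMM factors gave 152 genes, with all 149 members among them, and library totals alone kept 114 members. Reading the scale as the mean of scaled totals, tried after seeing the data, gave 153 genes.

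With library totals alone the genes called lower at 5 than at 2 months numbered 629 over all genes and 85 among members, in place of 1835 and 141, and those lower at 10 than at 5 months 5526 in place of 1652 over all genes. The larger first falls became 234 in place of 1097 (3 in place of 10 among members) and the larger second falls 3524 in place of 1631 (11 in place of 4 among members). DESeq2 called 1746 larger first falls over all genes. With the replicate number as a block, larger first falls over all genes numbered 641; the block moved no other count by over 1.5 times (members: 119, 99, 8 and 4). Same-numbered libraries did not deviate together, with correlations of -0.22 to 0.12 over 9 pairs, and 0 of 9 libraries correlated best with its own number, so the number was not taken as a pairing.

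With one library left out, calls ranged from 1039 to 1747 (members 102 to 136) for lower at 5 months, from 859 to 1840 (members 74 to 133) for lower at 10 months, from 415 to 1352 (members 3 to 12) for larger first falls and from 929 to 1919 (members 3 to 6) for larger second falls. Summed levels ranged from 18141 to 19403, from 7189 to 7553 and from 2896 to 3193. Without the 3 libraries rich in 6 abundant genes, tried after seeing the data, the counts over all genes were 1111, 240, 419 and 913 in the same order, with 22 members lower at 10 months and 2 with a larger first fall, and the 10-month sum was 3378, from a single library. Fewer libraries enter such fits; for the other changes the cause was not tested.

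Library totals alone moved the summed levels to 20245, 8754 and 2513, and leaving out the most abundant member to 16721, 6576 and 2686 by construction. The lowest share of left-out libraries in order was 88.0% with TMM factors and 85.2% with no limit of 150. Among named members no called difference changed sign. Low read counts limit the 10-month levels of the steepest members, which rest on as few as 3 reads a library.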
